A study of Saccharomyces cerevisiae with 12 samples.

Results

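RNA levels in budding yeast labelled as lacking ESA1 and SDS3 were compared with wild type: genes for building ribosomes were mostly higher, and genes near chromosome ends and for mitochondrial ribosomes mostly lower. The comparison set the 3 libraries titled esa1Δ sds3Δ against the 3 titled WT, in RNA sequencing of Saccharomyces cerevisiae. Of the 7126 features (genes and RNAs) in each file, the 5956 that averaged 1 RPKM or more across the 12 libraries were examined. Every group was W303, mating type MATα. The wild type carried the W303 mutations ura3-1, trp1-1, ade2-1 and can1-100, with his3-11 and a leu2 mutation, and the mutant was labelled esa1∆::HIS3 and sds3∆::natMX. The other groups, used below for direct comparisons alone, were labelled epl1Δ sds3Δ (epl1∆::kanMX sds3∆::natMX) and esa1Δ epl1Δ sds3Δ (the HIS3, kanMX and natMX deletions together), with 3 libraries each, so all mutant groups carried the SDS3 deletion label. Cultures were grown at 24 °C in SC medium to mid-log phase in biological triplicate, and rRNA-depleted total RNA was sequenced. No group lacked SDS3 alone, so the loss of ESA1 and the loss of SDS3 cannot be told apart here.

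ESA1 encodes the catalytic subunit of NuA4, a complex that acetylates histones H4, H2A and H2A.Z and is recruited to many promoters. It is essential in otherwise wild-type yeast. SDS3 encodes a subunit of Rpd3L, a histone deacetylase complex that represses genes after recruitment by DNA-binding factors such as Ume6 and Ash1, and its loss allows cells without ESA1 to live.

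RPKM is the number of reads per kilobase of gene, scaled to the size of the library. Values below are RPKM divided by a scaling factor per library, and log2 fold changes are differences of log2(scaled RPKM + 1), mutant minus wild type, which understate the change of low genes. "Rose" and "fell" are used where limma's adjusted p was under 0.05. "Mutant" means the libraries labelled esa1Δ sds3Δ. ESA1 (YOR244W) stood at 11.9, 10.1 and 13.5 RPKM in wild type and at 0.17, 0.175 and 0.273 in the mutant (log2 fold change -3.40). SDS3 (YIL084C) went against its label: it stood at 8.94, 8.5 and 9.35 RPKM in wild type and still at 4.96, 5.35 and 6.67 in the mutant (log2 fold change -0.58, adjusted p 0.011). The files do not say which part of SDS3 those reads covered, so each direction below is tied to the label, not to a shown absence of SDS3. KTR7 and CAB2, the neighbours of SDS3, had log2 fold changes of 2.22 and -1.12. The libraries held 13071781 to 14390732 reads in wild type and 8897111 to 8917129 in the mutant. Reads on protein-coding genes made up 64.6% to 65.5% in wild type and 55.5% to 56.7% in the mutant, and reads on small nucleolar RNAs 15.9% to 16.8% and 25.6% to 27.6%.

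Change was broad, with a median absolute log2 fold change of 0.43. Of the 5956 features tested, 1784 (30.0%) rose and 1770 (29.7%) fell, or 3554 (59.7%) in all. At least 2-fold, 538 (9.03%) rose and 349 (5.86%) fell, and 1438 of the calls were changes of under 1.5-fold. In 3761 features (63.1%) the 3 mutant libraries all lay beyond the 3 wild-type libraries, on the same side. Without the scaling factors the split turned to 1162 higher and 2562 lower, with the median of all genes moving from -0.01 to -0.24, so small changes are relative to that median. Among the tested features, 163 were under 1 RPKM in wild type and at least 1 in the mutant, of which 97 rose, and 59 were the reverse, of which 41 fell. These passed the filter on the level of 1 group or of the other mutants.

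**Figure D1:**
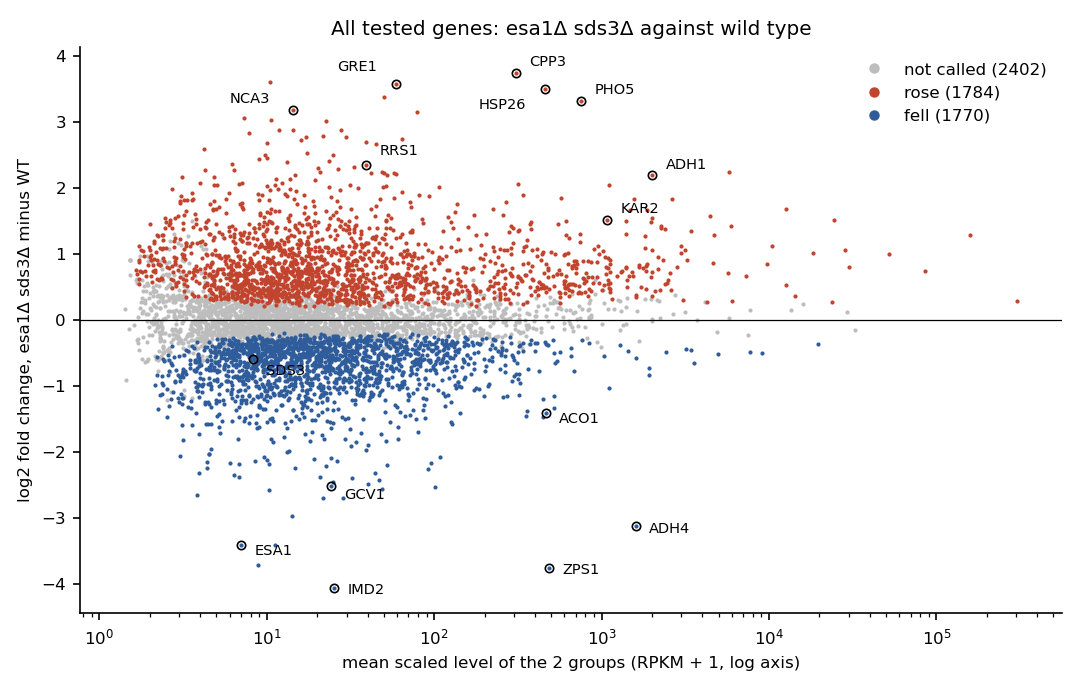
Each point is 1 of the 5956 features: mean level in both groups (scaled RPKM + 1, log axis) against the log2 fold change, mutant minus wild type, with features that rose, fell or were not called in separate colours. Calls spread over all levels, and CPP3 (3.75) and IMD2 (-4.05) lie at the ends.

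**Figure D2:**
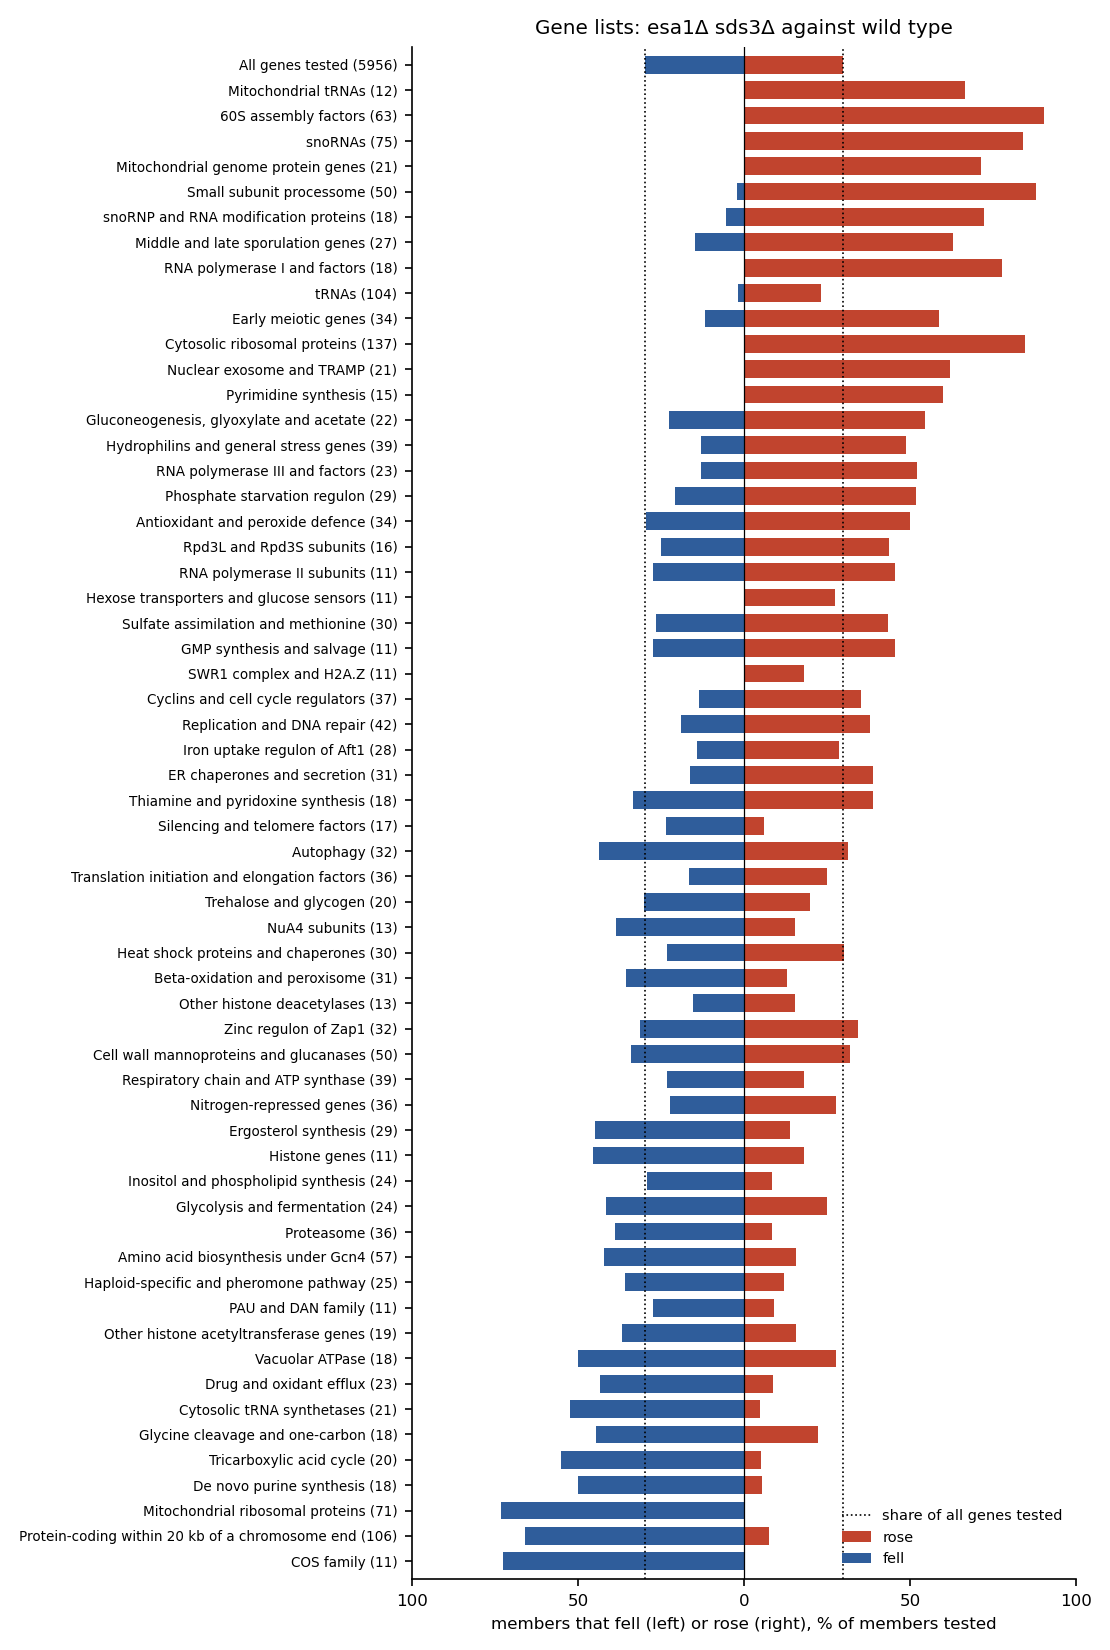
Share of the tested members of the larger gene lists that fell (bars to the left) or rose (bars to the right), in percent, with the number tested in brackets and the shares of all features as dotted lines. The 60S assembly and snoRNA lists are almost wholly higher, and the mitochondrial ribosomal protein list holds 52 of 71 lower and 0 higher.

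The most extensive increase was in ribosome production. Ribosomes are made in the nucleolus, where RNA polymerase I copies rDNA and many assembly factors and snoRNAs fold, cut and modify the transcript. Of 63 assembly factors of the large (60S) subunit, 57 rose and 0 fell (median log2 fold change 1.08). Of the 50 members of the small subunit processome 44 rose and 1, the kinase subunit CKB1, fell (median 0.92). RRS1, which helps to recruit the 5S ribonucleoprotein to the pre-60S particle, stood at 17.9, 11.7 and 7.42 RPKM in wild type and at 64, 67.8 and 59.6 in the mutant. All 3 mutant libraries were high and the groups were far apart (log2 fold change 2.35 ± 0.22 SE, adjusted p 1.9e-06). HCA4, an RNA helicase of the small subunit processome, went from 6.32, 3.84 and 2.62 to 24.6, 20.1 and 19.6 RPKM (2.15 ± 0.19, adjusted p 1.7e-06).

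The wild-type libraries were not alike for these genes. The summed level of the 60S list ran from 708 to 1295 scaled RPKM over the wild-type libraries and from 1857 to 2064 over the mutant ones. Without wild-type replicate 3, where the listed genes were lowest, the list medians were 0.82 for the 60S factors and 0.73 for the processome.

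The upstream DNA of these genes is printed because it carries 2 letter patterns that the assembly genes share. The PAC element (searched as GATGAG) is bound by the repressors Dot6 and Tod6, which work with Rpd3L, and the rRNA processing element RRPE (searched as AAAATTTT) by Stb3. Capitals mark both, on either strand, in the bases from 300 to 61 before the start codon, 5′ to 3′ along the gene. RRS1 lies downstream of chrXV:868040-868279, plus strand, and HCA4 of chrX:383537-383776, plus strand, in R64.
RRS1: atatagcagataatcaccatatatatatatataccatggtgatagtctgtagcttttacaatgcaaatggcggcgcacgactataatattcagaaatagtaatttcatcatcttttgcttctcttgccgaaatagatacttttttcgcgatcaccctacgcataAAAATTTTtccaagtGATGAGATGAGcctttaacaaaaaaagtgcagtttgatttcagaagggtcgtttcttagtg
HCA4: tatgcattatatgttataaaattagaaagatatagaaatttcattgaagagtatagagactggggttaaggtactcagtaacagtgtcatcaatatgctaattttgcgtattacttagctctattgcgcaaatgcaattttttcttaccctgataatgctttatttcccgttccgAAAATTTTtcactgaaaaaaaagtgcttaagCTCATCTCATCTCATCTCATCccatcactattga

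RRS1 holds AAAATTTT followed by overlapping copies of GATGAG, and HCA4 holds the same order with CTCATC, the reverse complement, repeated. Over the 5515 promoters read (the 300 bases before the start codon), 18.7% held GATGAG and 9.86% held AAAATTTT on either strand. Among genes that rose at least 2-fold the shares were 46.6% and 23.4%. Of the 265 genes with both, 178 (67.2%) rose and 25 (9.43%) fell. Of the 4203 genes with neither, 1028 (24.5%) rose and 1444 (34.4%) fell. Both patterns stood in 45 of 63 promoters of the 60S list and 34 of 50 of the processome list. Among the 153 genes with both that belong to none of the ribosome, RNA polymerase, exosome or translation lists, 85 (55.6%) rose and 21 (13.7%) fell. Of the 4034 outside those lists with neither, 911 (22.6%) rose and 1435 (35.6%) fell. The lists were chosen by hand and may leave out genes of ribosome production, so the 153 may hold some. A match is a run of letters, not a shown binding site. Without the scaling factors, 139 of the 265 were higher and 37 were lower.

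TOD6 itself rose from 4.44, 3.36 and 3.21 RPKM to 19.7, 17.8 and 15.2 (1.99 ± 0.12, adjusted p 6e-08). DOT6 rose less, from 42.8, 49.8 and 54.3 to 70, 67.7 and 80 (0.56, adjusted p 0.00068).

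Other parts of the ribosome pathway moved in the same direction. Of 18 RNA polymerase I subunits and factors 14 rose and 0 fell, led by RPA14, a subunit of the stalk, which went from 13, 12.8 and 15.5 RPKM to 70.5, 64.1 and 69.3 (2.23 ± 0.13, adjusted p 5.5e-08). RRN3, which makes the polymerase competent to start, rose by 1.63. Of 23 RNA polymerase III subunits and factors 12 rose and 3 fell. RNA polymerase II, set beside these for comparison, was mixed. Of its 11 subunits 5 rose (45.5%) and 3 fell (27.3%), beside 30.0% and 29.7% of all features. Of 18 proteins of snoRNA particles and RNA modification 13 rose and 1 fell, RSA1 (adjusted p up to 0.17 without single libraries), and of 21 exosome and TRAMP members, which trim and degrade nuclear RNA, 13 rose and 0 fell. Of 75 snoRNAs 63 rose and 0 fell (median 1.01). The guide snR8 went from 1765, 2147 and 2062 RPKM to 8236, 10055 and 10097 (2.25, adjusted p 8.9e-08). NME1, the RNA of the RNase MRP that cuts the pre-rRNA, rose by 1.13. Of 137 cytosolic ribosomal protein genes 116 rose and 0 fell (median 0.65). Paralogous ribosomal genes may share reads. Without the scaling factors, 91 were higher and 2 lower of the 137, 61 and 3 of the snoRNAs, and 10 and 3 of the exosome list. The counts were then 10 and 0 for RNA polymerase I, 10 and 4 for RNA polymerase III, and 3 and 3 for RNA polymerase II.

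Factors of translation itself did not follow. Of 36 initiation and elongation factors 9 rose and 6 fell, and SUI1, encoding the start-codon factor eIF1, was highest (1.60, adjusted p 6.6e-06). Of 21 cytosolic tRNA synthetases, which charge tRNAs, 1 (HTS1) rose and 11 fell (median -0.32), led by the tryptophan enzyme WRS1 at -0.75. HTS1 lost its call without the scaling factors (adjusted p 0.1).

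**Figure D3:**
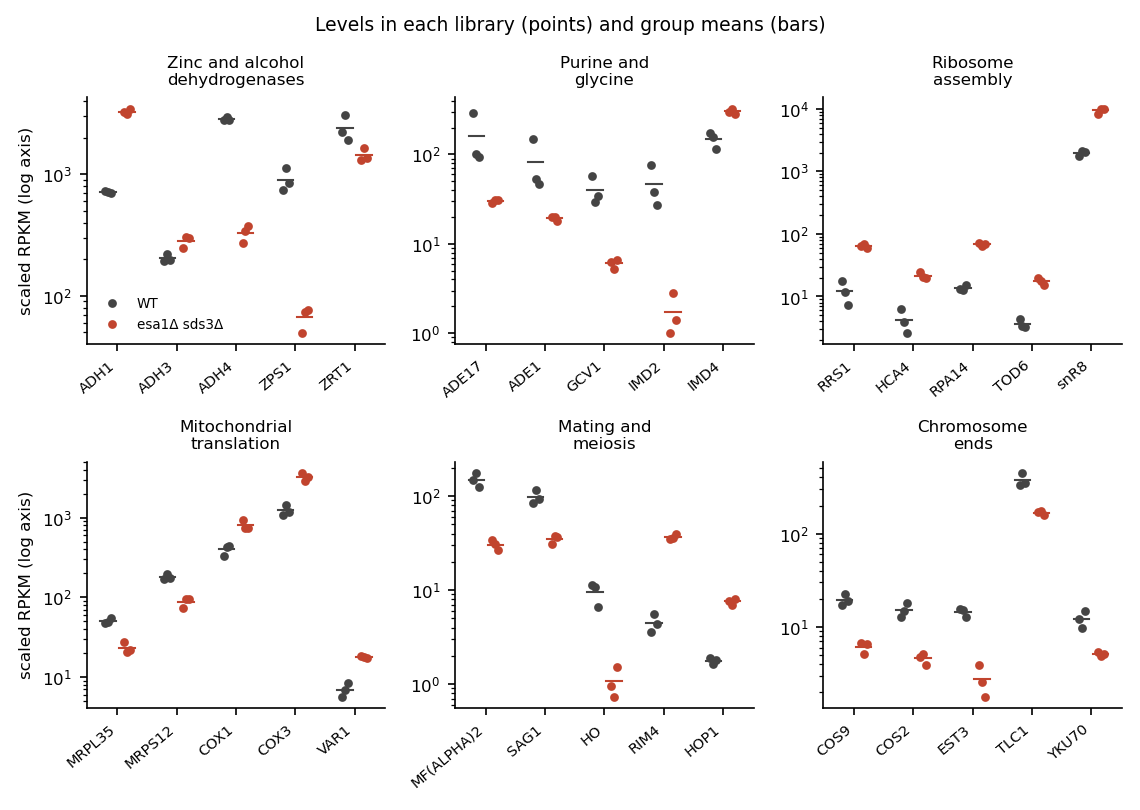
Level of selected genes in every library of wild type and of the libraries labelled esa1Δ sds3Δ (scaled RPKM, log axis), 1 point per library and a bar at each group mean. The 2 groups do not overlap for the ribosome assembly gene RRS1 or for ADH1 and ADH4, and wild-type replicate 1 stands above the other wild-type libraries for ADE17.

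Nuclear genes for mitochondrial ribosomal proteins were mostly lower, and most genes of the mitochondrial genome were higher. Mitochondria have ribosomes of their own, whose proteins are nearly all encoded in the nucleus, while the mitochondrial DNA encodes a few subunits of the respiratory chain and ATP synthase, 1 ribosomal protein and tRNAs. Of 71 nuclear genes for mitochondrial ribosomal proteins 0 rose and 52 fell (73.2% beside 29.7% of all features), with a median of -0.52 and a range of that median over all alternatives from -0.77 to -0.45. MRPL35, of the large subunit, went from 47.6, 49.3 and 54.7 RPKM to 27.7, 20.4 and 21.6 (-1.10 ± 0.11, adjusted p 3e-06). MRPS12, of the small subunit, went from 169, 194 and 175 to 73.8, 93.9 and 95.3 (-1.03). Each mutant library lay below each wild-type library for both genes.

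Of the 21 tested protein genes and reading frames of the mitochondrial genome, 15 rose and 0 fell (median 1.01). VAR1, the ribosomal protein gene of that genome, went from 5.59, 6.8 and 8.27 RPKM to 18.1, 17.9 and 17.3 (1.26 ± 0.18, adjusted p 6.2e-05). Of the cytochrome oxidase genes, COX1 rose by 1.01 and COX3 rose from 1077, 1457 and 1190 RPKM to 3660, 2885 and 3265 (adjusted p 2.6e-06). COB and ATP6 did not pass (0.27 with adjusted p 0.11, and -0.40 with adjusted p 0.10). Of 12 mitochondrial tRNAs 8 rose and 0 fell (median 1.94). Several of these frames lie inside introns of COX1 or COB, so their reads may be shared. The nuclear genes of the respiratory chain and ATP synthase had 7 of 39 higher and 9 lower, both under the background shares. As deposited, 4 were higher and 22 lower. Numbers of mitochondrial DNA copies and RNA per copy cannot be told apart in such data.

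Central carbon enzymes were also redistributed. Of 20 enzymes of the tricarboxylic acid cycle and its feeder steps 1 (PYC1) rose and 11 fell (median -0.44). ACO1, the aconitase, went from 565, 798 and 668 RPKM to 231, 257 and 268 (-1.41 ± 0.14, adjusted p 3.3e-06), and CIT2, the peroxisomal citrate synthase, fell by 1.33. The PYC1 call, at 0.30, was lost without the scaling factors, with the 6 libraries alone, and without mutant replicate 3 (highest adjusted p 0.72).

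The alcohol dehydrogenases exchanged places. ADH1, the main enzyme that makes ethanol, stood at 728, 721 and 700 RPKM in wild type and at 3254, 3141 and 3481 in the mutant (2.20 ± 0.10, adjusted p 6.9e-09). ADH4, an isoenzyme induced when zinc is short, stood at 2825, 2945 and 2805 and then at 271, 342 and 379 (-3.12 ± 0.14, adjusted p 7.1e-09). The higher of the pair was thus ADH4 in every wild-type library and ADH1 in every mutant library, on a scale per gene length. ADH2, the glucose-repressed isoenzyme that uses ethanol, rose by 2.05 and ADH5 fell by 2.53. ADH2 stood at 3.32, 2.35 and 4.23 RPKM in wild type and at 12.3, 16.3 and 22.5 in the mutant, far below ADH1 in both. Near-identical stretches of ADH1 and ADH2 may share reads, so the rise of ADH2 is uncertain.

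Of the 32 listed targets of Zap1, the zinc-responsive activator, 11 rose (34.4%) and 10 fell (31.25%). These shares were near those of all features (30.0% and 29.7%). By at least 2-fold, 2 rose and 7 fell, and the highest log2 fold change in the list was 1.12. Without the scaling factors 7 were higher and 15 lower. ADH4 was among those that fell with ZPS1, which went from 737, 1134 and 848 RPKM to 49.5, 73.8 and 76 (-3.75), YOR387C (-3.71) and the zinc transporter gene ZRT1 (-0.72). ZAP1 itself did not pass (-0.23).

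Of 24 glycolysis and fermentation genes 6 rose and 10 fell. PDC5 and PDC6, minor pyruvate decarboxylases, rose by 1.68 and 1.12, and PYK2, the minor pyruvate kinase, fell by 1.89. Of 22 genes of gluconeogenesis, the glyoxylate cycle and acetate use 12 rose and 5 fell (median 0.53). ACS1, an acetyl-CoA synthetase, went from 15.8, 14.9 and 15.8 RPKM to 99, 99.4 and 135 (2.75 ± 0.16, adjusted p 6e-08). SIP4, an activator of this set, rose by 2.46, and CAT8, which activates SIP4, fell by 1.31. HXT5, a hexose transporter made in slow growth, rose from 10, 13.3 and 24.5 RPKM to 137, 131 and 153 (3.15 ± 0.24), and HXT2 rose by 1.19. Of the 11 tested transporters and sensors of 21 listed, 3 rose (27.3%) and 0 fell, beside 30.0% and 29.7% of all features. The list median was 0.27, and 0.01 without the scaling factors.

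Nucleotide synthesis split by pathway. Purines are built on ribose phosphate with one-carbon units and glycine, and the ADE genes and glycine cleavage genes share the activators Bas1, Pho2 and Gcn4. Of 18 genes of purine synthesis 1 (PRS4) rose and 9 fell (median -0.44). Of 18 glycine and one-carbon genes 4 rose and 8 fell (-0.33). ADE17, which catalyses the last steps to IMP, stood at 287, 100 and 93 RPKM in wild type and at 28.4, 31.2 and 31.1 in the mutant (-2.16 ± 0.32, adjusted p 9.1e-05). Wild-type replicate 1 was almost 3 times the other wild-type libraries, and the groups still did not overlap. Without that replicate the log2 fold change was -1.64. GCV1, a subunit of the glycine cleavage complex, went from 57, 29.7 and 34.6 to 6.23, 5.25 and 6.67 RPKM (-2.51 ± 0.19, adjusted p 3.6e-07). GCV2 and GCV3 fell by 1.91 and 1.72, and ADE2 by 1.99.

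The ADE17 and GCV1 promoters are shown because they hold TGACTC, the core bound by Gcn4 and Bas1, in capitals on the strand printed. ADE17 lies downstream of chrXIII:509341-509580, minus strand, and GCV1 of chrIV:485426-485665, minus strand.
ADE17: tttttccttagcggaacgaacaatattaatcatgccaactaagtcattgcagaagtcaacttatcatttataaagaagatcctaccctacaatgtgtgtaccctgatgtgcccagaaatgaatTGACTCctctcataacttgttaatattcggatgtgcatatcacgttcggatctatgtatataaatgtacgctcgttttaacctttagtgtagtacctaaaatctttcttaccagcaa
GCV1: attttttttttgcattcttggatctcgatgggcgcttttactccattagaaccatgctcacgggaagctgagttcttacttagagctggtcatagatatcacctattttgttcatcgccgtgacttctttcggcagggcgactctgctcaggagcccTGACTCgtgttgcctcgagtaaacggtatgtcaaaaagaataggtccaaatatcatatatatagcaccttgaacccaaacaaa

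TGACTC, searched on both strands, stood in 8.07% of all promoters, in 9 of 18 purine genes and in 10 of 18 glycine and one-carbon genes. The median log2 fold change was -1.05 for the 9 purine genes with it and 0.04 for those without, and -0.84 and 0.24 in the other list. Of all 445 genes with TGACTC, 102 (22.9%) rose and 181 (40.7%) fell. Amino acid synthesis genes under Gcn4 were 9 higher and 24 lower of 57 (median -0.18).

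Genes of GMP synthesis were mixed and those of pyrimidine synthesis mostly higher. IMD2, an inducible IMP dehydrogenase, went from 76.1, 37.6 and 27.3 RPKM to 1.01, 2.83 and 1.39 (-4.05 ± 0.32, adjusted p 6.2e-07), while its paralog IMD4 rose from 175, 159 and 114 to 301, 325 and 285 (1.04). GUA1, the GMP synthase, rose by 1.05. Of 15 pyrimidine genes 9 rose and 0 fell (median 0.57). URA1, the dihydroorotate dehydrogenase, went from 40.3, 58.9 and 31.4 to 124, 128 and 120 RPKM (1.54 ± 0.17, adjusted p 8.4e-06), and URA7, a CTP synthase, rose by 1.39. The IMD genes are close copies, so reads may be divided among them.

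The genome position of a gene went with its direction. Genes near chromosome ends are packaged in silenced chromatin of varying extent, and many belong to families for transport, cell walls or vitamins. Of the 32 tested protein genes that lie within 10 kb of an end, 0 rose and 24 fell (75.0%), with a median of -0.86. Between 10 and 20 kb, 8 of 74 rose and 46 fell (62.2%), and between 20 and 30 kb, 23 of 113 rose and 47 fell (41.6%). Beyond 200 kb the shares were 30.7% and 29.9%. Within 20 kb, 106 of 231 protein-coding genes were tested, with 70 lower and 8 higher, and genes that fell stood on 25 of the 30 chromosome arms that had a tested gene. The median level in wild type was 7.73 RPKM within 10 kb and 16.2 over all protein-coding genes. IMD2 and ADH4 are both on this list. The 8 that rose were ERO1, MSC1, DIA1, PHO89, RMD6, PUG1, CHA1 and GIT1. MSC1 and RMD6 lost their calls without the scaling factors or without 1 wild-type library (adjusted p up to 0.093 and 0.12).

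**Figure D4:**
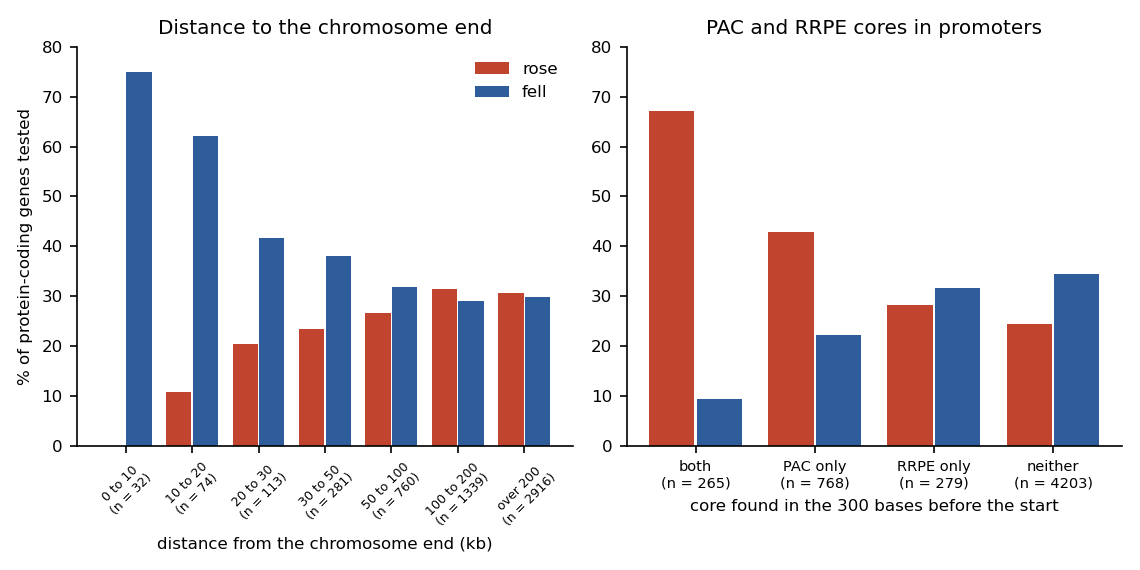
Share of protein-coding genes that rose or fell by distance from the chromosome end (kb) and by promoter letters (percent). The share that fell declines from 75.0% within 10 kb to 29.9% beyond 200 kb, and 67.2% of genes with both GATGAG and AAAATTTT rose.

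The COS genes are a subtelomeric family of membrane proteins that help to sort other proteins into the vacuole. Of 11 tested members 0 rose and 8 fell (median -1.09). COS9 went from 17.3, 22.5 and 19 RPKM to 6.77, 5.16 and 6.56 (-1.52 ± 0.15, adjusted p 4.3e-06), and COS1 from 48.8, 59.1 and 60 to 26.7, 24.4 and 26.2 (-1.09). COS6, COS10 and COS111 did not pass (-0.35, 0.11 and 0.02). Copies are very alike and how reads matching several places were counted is not stated, so the values of single COS genes are uncertain. The 8 that fell were the 8 whose 300 upstream bases hold GGCGGC (URS1), the core to which Ume6 recruits Rpd3L, but with the replicate block or without the scaling factors 9 of the 11 fell, COS6 among them, so the match was not exact there. It stood in 5.04% of all promoters, searched on both strands. COS6, COS10 and COS111 lack it. Since the copies share sequence, these are not independent cases.

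Early meiotic genes, among which are the best known Ume6 targets, were mostly higher, and some hold the same letters: of 34 tested of 42 listed, 20 rose and 4 fell. The median was 1.13 for the 14 with GGCGGC and 0.39 for the rest. With a minimum mean of 10 RPKM the median of the few genes left was -0.32. For comparison, RIM4 and HOP1 are printed with COS1 and COS7, GGCGGC in capitals. They lie downstream of chrVIII:56349-56588, plus strand, of chrIX:226302-226541, plus strand, of chrXIV:8030-8269, plus strand and of chrIV:1502-1741, plus strand.
RIM4: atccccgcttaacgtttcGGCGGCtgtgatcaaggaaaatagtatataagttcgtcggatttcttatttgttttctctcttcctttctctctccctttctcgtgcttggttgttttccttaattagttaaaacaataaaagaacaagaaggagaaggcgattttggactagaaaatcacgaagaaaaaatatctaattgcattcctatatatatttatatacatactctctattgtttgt
HOP1: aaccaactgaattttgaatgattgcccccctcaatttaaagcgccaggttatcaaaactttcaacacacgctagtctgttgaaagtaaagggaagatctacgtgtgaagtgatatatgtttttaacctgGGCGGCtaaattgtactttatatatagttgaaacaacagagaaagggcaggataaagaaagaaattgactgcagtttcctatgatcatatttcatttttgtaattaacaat
COS1: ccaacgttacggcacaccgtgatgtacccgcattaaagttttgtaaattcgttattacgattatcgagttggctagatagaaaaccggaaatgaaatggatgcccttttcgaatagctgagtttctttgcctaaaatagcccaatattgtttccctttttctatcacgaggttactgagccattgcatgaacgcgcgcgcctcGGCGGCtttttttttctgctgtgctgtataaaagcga
COS7: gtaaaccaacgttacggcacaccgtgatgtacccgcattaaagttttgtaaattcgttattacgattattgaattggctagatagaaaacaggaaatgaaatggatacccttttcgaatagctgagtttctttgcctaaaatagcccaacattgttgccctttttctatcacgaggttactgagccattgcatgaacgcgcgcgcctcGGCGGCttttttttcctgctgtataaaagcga

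RIM4, an RNA-binding regulator of meiosis, went from 3.59, 5.51 and 4.4 RPKM to 35.1, 35.8 and 39.1 (2.79 ± 0.16, adjusted p 5.3e-08). HOP1, of the meiotic chromosome axis, went from 1.88, 1.64 and 1.79 to 7.62, 7.01 and 8.09 (1.63). MND1, of meiotic recombination, was between 0 and 0.353 RPKM in wild type and at 6.2 to 6.26 in the mutant. The 4 early genes that fell were HFM1, IDS2, RIM11 and SPO11. SPO11 went from 10.9, 8.68 and 8.51 RPKM to 4.18, 5.18 and 4.78. Across the 278 tested genes with GGCGGC, 113 (40.6%) rose and 67 (24.1%) fell. NDT80, the switch to middle meiosis, did not pass (0.14). Of 27 tested of 42 listed middle and late sporulation genes 17 rose and 4 fell (median 0.83). With a minimum mean of 10 RPKM the median of those left was 0.07. The summed level of the list was 126 to 160 scaled RPKM in wild type and 158 to 170 in the mutant. Genes of either list near 0 in wild type passed the filter only where mutant libraries were high, which favours rises. Among the later genes, SPS100, of the spore wall, rose most, from 2.78, 1.98 and 2.49 to 22.6, 26.3 and 23.7 RPKM (2.89). The 4 later genes that fell were DIT1, RRT8, SPR6 and SPS4. DIT1 went from 2.6, 2.7 and 1.7 RPKM to 1.4, 1.2 and 1.1. RRT8 went from 56.4, 66.6 and 86.7 RPKM to 27.93, 27.96 and 31.9. In bulk RNA, fewer or more cells of a type and less or more RNA per cell cannot be told apart.

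The strains were of the α mating type, and all 4 α-specific genes fell, from the pheromone gene MF(ALPHA)2 (148, 177 and 125 RPKM, then 34.1, 30.6 and 26.5, or -2.26) to the receptor gene STE3 (-0.50). HO, the mating-type endonuclease gene, fell by 2.34. Of 5 tested a-specific genes, which MATα cells keep off, 2 (MFA1 and AGA2) rose and 1, STE6, the transporter of a-factor, fell by 0.75. MFA1, for a-factor, was at 0, 2.02 and 0 RPKM in wild type and at 3.07, 2.11 and 6.57 in the mutant, close to the floor. AGA2, of the a-agglutinin, was called at 0.74 but lost its call with the replicate block, without the scaling factors and without single libraries (adjusted p up to 0.14).

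Some chaperone genes of the endoplasmic reticulum rose. KAR2, the main chaperone of the endoplasmic reticulum, went from 540, 620 and 516 RPKM to 1563, 1633 and 1605 (1.52 ± 0.10, adjusted p 9.5e-08), its nucleotide exchange factor SIL1 rose by 0.97 and ERO1, which oxidises cysteines there, by 1.09. Of 31 listed genes 12 rose and 5 fell, among them CPR5 at -0.87. The direction of the list turned without the scaling factors, with 8 higher and 12 lower.

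Of 39 hydrophilins and general stress genes 19 rose and 5 fell. GRE1, a hydrophilin, went from 7.21, 6.93 and 10.6 RPKM to 105, 102 and 115 (3.57). The list of heat shock proteins and chaperones was near the background, with 9 of 30 higher and 7 lower (6 and 15 without the scaling factors). In it HSP26, a small heat shock protein, rose from 57.1, 62.3 and 108 to 744, 799 and 993 RPKM (3.51), while SSA2, a cytosolic Hsp70, fell by 1.15 and HSP60, the mitochondrial chaperonin, by 0.56. Of 34 antioxidant genes 17 rose and 10 fell (10 and 12 without the scaling factors), with SRX1, sulfiredoxin, at 3.07 and DOT5, a nuclear peroxidase, at -2.21. CTT1, the cytosolic catalase, did not pass (-0.17).

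Phosphate genes were split as well, with 15 of 29 higher (51.7%) and 6 lower (20.7%), beside 30.0% and 29.7% of all features. PHO11, PHO12 and PHO85 were among the 6 that fell. The secreted phosphatase gene PHO5 went from 175, 164 and 86.2 to 1226, 1467 and 1419 RPKM (3.32), and PHO85, encoding the kinase that inhibits Pho4, from 32.5, 39.6 and 35.4 to 16.5, 20 and 15.4 (-1.01). The arginine catabolism genes CAR1 and CAR2, at which Ume6 also acts, rose by 2.04 and 2.05, while of 36 nitrogen-repressed genes 10 rose and 8 fell, near the background shares (2 and 14 without the scaling factors).

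Genes for the chromatin machinery moved in both directions. Of the 13 NuA4 genes, 2 rose (15.4%) and 5 fell (38.5%), beside 30.0% and 29.7% of all features. ESA1 itself was first among the 5, and EPL1, its partner in the catalytic module, was not called (3.52, 2.18 and 3.03 RPKM, then 4.82, 2.9 and 3.31). Of 16 genes of Rpd3L and Rpd3S 7 rose (43.75%) and 4 fell (25%), and SDS3, labelled as deleted, was 1 of the 4. RPD3 fell by 0.59, UME6 rose by 0.96 and TOD6, given above, by 1.99. Without the scaling factors the counts were 0 higher and 6 lower for NuA4, and 3 higher and 6 lower for Rpd3L and Rpd3S, so the balance of the latter turned. Among other acetyltransferases, HAT1 fell by 1.02, RTT109 by 0.67 and SAS2 rose by 1.16.

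Histone genes differed by type. HTB2, one of a pair of H2B genes, went from 399, 601 and 559 RPKM to 170, 218 and 204 (-1.38 ± 0.15, adjusted p 8.5e-06), and HTB1 and HTA2 fell by 0.55 and 0.53. HHT1, HHT2 and HHF1, for H3 and H4, did not pass, with values from 0.05 to 0.31. HHF2, the other H4 gene, rose from 664, 552 and 660 RPKM to 829, 800 and 854 (0.41, adjusted p 0.0032), a call lost without the scaling factors and with quantile normalization (adjusted p up to 0.76). CSE4, the centromeric H3, rose by 0.84.

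Of 17 silencing and telomere factors 1 rose and 4 fell, fewer than the background shares, and the telomerase genes differed among themselves. EST3, a telomerase subunit, went from 15.4, 15.3 and 12.7 RPKM to 3.95, 2.57 and 1.78 (-2.07 ± 0.32, adjusted p 0.00011). TLC1, the RNA template, went from 330, 449 and 352 to 169, 175 and 159 (-1.15 ± 0.12, adjusted p 6.1e-06), and YKU70, which binds DNA ends, fell by 1.08. EST1, another subunit, rose from 2.98, 3.06 and 3.38 RPKM to 4.54, 4.62 and 4.17 (0.40, adjusted p 0.0064), a call lost without the scaling factors (adjusted p 0.21). EST2, the reverse transcriptase, did not pass (0.10). EST3 lies at IX 335666 to 336212, beside the convergent gene DOT5 (334882 to 335529), which fell too. SIR2, SIR3 and SIR4, the silencing proteins, did not pass (0.16, 0.08 and -0.06), and SIR1 fell by 0.82.

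Ribonucleotide reductase genes diverged. RNR1, the large subunit, went from 95.8, 105 and 51.5 RPKM to 38.7, 43.3 and 39.1 (-0.98 ± 0.20, adjusted p 0.0011), while the small subunit gene RNR4 rose from 231, 276 and 231 to 439, 552 and 556 (1.06) and RNR2 by 0.59. HUG1, a checkpoint-induced inhibitor of the enzyme, rose by 1.15 and DUN1, the kinase that controls it, by 0.94.

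Neighbouring genes that share an upstream region (divergent) went the same way in 319 of the 506 pairs in which both were called (63.0%), tandem ones in 523 of 904 (57.9%) and convergent ones in 272 of 529 (51.4%). Pearson's r of neighbours' log2 fold changes was 0.19, 0.11 and 0.04 over 1323, 2502 and 1392 pairs. It is a description across genes of the same libraries.

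The other mutant groups were close to this one. In a direct test 11 features (0.185%) differed from the libraries labelled epl1Δ sds3Δ and 3 (0.0504%) from those labelled esa1Δ epl1Δ sds3Δ, with 282 and 377 at an unadjusted p under 0.05. The median absolute log2 difference was 0.09 and 0.11, beside 0.43 against wild type. Correlation of library values across genes was 0.986 to 0.990 with the first, 0.989 to 0.993 with the second and 0.928 to 0.944 with wild type. EPL1, ESA1 and HIS3, the marker at ESA1, were among the genes that differed. HIS3 was at 39.4, 38.8 and 41.5 RPKM, against 9.06, 13 and 11.8 in epl1Δ sds3Δ and 18.8, 11.3 and 11.2 in wild type.

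**Figure D5:**
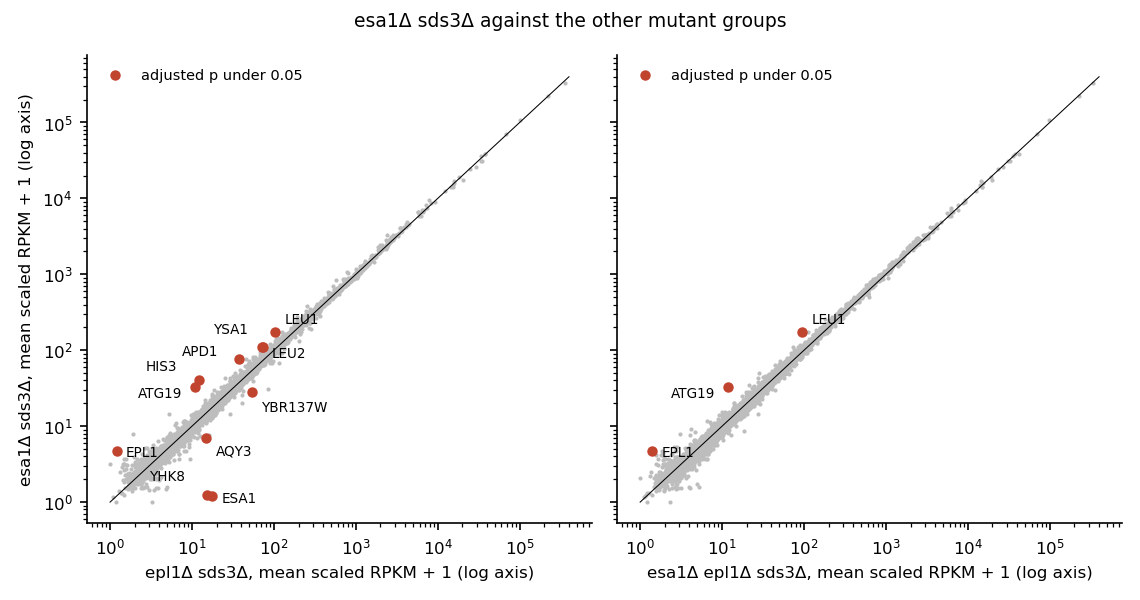
Mean level of each feature in the libraries labelled esa1Δ sds3Δ against the libraries labelled epl1Δ sds3Δ (left) and esa1Δ epl1Δ sds3Δ (right), as scaled RPKM + 1 on log axes. Coloured points passed an adjusted p under 0.05: 11 on the left and 3 on the right, most of the rest lying along the line of equal values.

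YHK8, a putative transporter gene, was at 0.0735, 0.303 and 0.394 RPKM in esa1Δ sds3Δ and at 1.6, 2.9 and 2.19 in wild type. In epl1Δ sds3Δ it was at 14.8, 14.1 and 14.4 (-3.63 between these mutants, limma's adjusted p 1.9e-07). In esa1Δ epl1Δ sds3Δ it was at 0.354, 0.232 and 0.556, so the low level was not particular to esa1Δ sds3Δ. ATG19, a receptor of selective autophagy, was at 31.3, 30.8 and 32.9 RPKM, against 10.1, 11.5 and 8.23 in epl1Δ sds3Δ and 13.2, 10.2 and 9.23 in esa1Δ epl1Δ sds3Δ. Wild type had 43, 38.9 and 59.6. LEU1, of leucine synthesis, was at 180, 166 and 166 RPKM, against 100.2, 99.99 and 111, and 95.8, 94.1 and 92.8. Both EPL1-deleted groups were below esa1Δ sds3Δ for ATG19 and LEU1, with no overlap.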

How the data were processed

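Per the labels' protocols, RNA of 12 cultures (4 groups of 3 biological replicates) came from a hot phenol preparation, DNase digestion and rRNA depletion, followed by stranded library construction. The authors deposited 1 table of RPKM values per library. Per the submitters' processing notes, the tools included STAR, Bowtie 0.12.2 and cutadapt, and the builds sacCer3 and mm8. How reads were counted, with which strand option and with what rule for repeated sequence, is not given in the sources used here, so overlapping and antisense genes cannot be separated with certainty. Names and coordinates came from the R64 annotation, in which 6048 features matched by locus tag and 114 by name, and 964 stayed unmatched.

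Each library's RPKM was divided by a median-of-ratios factor (1.02 to 1.22 in wild type, 0.923 to 0.987 in esa1Δ sds3Δ), filtered at a mean of 1 RPKM, transformed as log2(RPKM + 1) and tested with limma 3.58.1 in R 4.3.3 (eBayes with trend, all 12 libraries in 1 model, Benjamini-Hochberg over 5956 features, adjusted p under 0.05). The model was tested on simulated data. Steps between values gave whole reads for 99.7% of values under 5000 reads, to within 0.01 read. Alternatives were the deposited values unscaled, scaling from protein-coding genes, quantile normalization, pseudocounts of 0.1 and 5, no filter, a minimum of 10 RPKM, the 6 libraries alone, a replicate block, each library left out, and voom on the recovered reads. Deviations from the group means were weakly correlated between same-numbered wild-type and esa1Δ sds3Δ libraries (0.124, 0.125 and 0.182). The main model did not pair libraries by number, and the replicate block is the alternative that does. No label states a shared batch, and whether the numbers mark one was not tested. Tables and figures used Python 3.11.15, numpy 2.4.6, pandas 2.3.3 and matplotlib 3.10.9.

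Members and gene lists were chosen with earlier results of these data known, and 5 list members were removed after their values were seen. Genes named were the deleted genes, their neighbours and markers, up to 15 per direction with the largest change, per list up to 6 called members with the smallest adjusted p, those moving against the majority and those needed to say which did not pass, and the largest differences between mutant groups. Genes outside this rule that are named were chosen after their values were seen. Upstream sequence was read from the R64 genome. A gene group is not reported here.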

Additional observations from a re-analysis of the deposited data

Results flagged for a closer look

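Features that differed between esa1Δ sds3Δ and another mutant group by limma's adjusted p under 0.05 are listed as log2 differences, esa1Δ sds3Δ minus the other group. Against epl1Δ sds3Δ, the deleted genes and marker differed, with ESA1 at -3.875 (adjusted p 1.98e-09), EPL1 at 1.937 (adjusted p 0.000688) and HIS3 at 1.748 (adjusted p 0.000369). YHK8 stood at -3.627, AQY3, of the aquaporin family, at -1.080 and YBR137W at -0.955. ATG19 stood at 1.587, APD1 at 1.041, LEU1 at 0.718, LEU2 at 0.623 and YSA1 at 0.572. AQY3, LEU2 and YSA1 lost their calls with the replicate block, and those 3 and YBR137W without at least 1 of the single libraries. Against esa1Δ epl1Δ sds3Δ, EPL1 stood at 1.710, ATG19 at 1.474 and LEU1 at 0.852. LEU2 was at 106, 117 and 107 against 72.9, 69.0 and 71.4 RPKM, and at 139, 172 and 149 in wild type.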

How the results depend on the processing

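With the values as deposited, 1162 features were higher and 2562 lower, and of changes of at least 2-fold 339 were higher and 621 lower. A minimum of 10 RPKM left only 3812 features to test, with 1320 higher and 1150 lower. Of these, 394 were higher and 199 lower by at least 2-fold. A pseudocount of 5 gave 293 higher and 155 lower by at least 2-fold. The replicate block gave 1864 higher and 1810 lower, and among the genes named by rule it ended the calls of AGA2, GZF3, MCM2, TFC8, THI3 and YKU80 and added PUS7. Leaving out each library gave 1614 to 1765 higher and 1575 to 1696 lower. Voom on the recovered reads gave 1760 higher and 1767 lower. Against epl1Δ sds3Δ, leaving out a library gave 7 to 8 features, the replicate block gave 8, and the 6 libraries alone and voom gave 14 each. Against esa1Δ epl1Δ sds3Δ, the 6 libraries alone gave 6, voom gave 5 and the replicate block gave 3. Same-numbered correlations ran from -0.053 to 0.173 with epl1Δ sds3Δ and from 0.078 to 0.155 with esa1Δ epl1Δ sds3Δ. With wild type they ran from 0.124 to 0.182. These values do not settle whether any of the groups were paired by number. BGL2 reversed under quantile normalization (-0.20). The causes were not tested. Of 8282 values of 527 named genes over 16 settings, 339 lost and 5 gained a call. Of 64 list medians 24 changed sign in some setting. Low genes are limited by depth: 1 read in 1 kb was worth 0.0695 to 0.0765 RPKM in wild type and 0.112 in the mutant.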

Other observations

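Further gene groups were measured in the same comparison. Of 36 proteasome genes, with their activator RPN4 on the list, 3 rose and 14 fell (2 and 27 without the scaling factors). RPN4 was 1 of the 3, going from 18.9, 17.5 and 22 RPKM to 50.7, 48.2 and 54.7 (log2 fold change 1.35, adjusted p 7e-07 by limma). Of 29 ergosterol genes 4 rose and 13 fell, with ERG26, a sterol dehydrogenase, at -1.29. Of 18 vacuolar ATPase genes 5 rose and 9 fell. Of 32 autophagy genes 10 rose (31.25%) and 14 fell (43.75%), beside 30.0% and 29.7% of all features. ATG8, the membrane tag of autophagosomes, fell by 1.09 and ATG11, a scaffold of selective autophagy, rose by 1.25. Without the scaling factors the vacuolar ATPase list had 2 higher and 11 lower, and the autophagy list 5 higher and 14 lower.

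Of 23 genes of drug and oxidant efflux 2 rose and 10 fell. QDR2, a multidrug transporter, went from 5.86, 7.48 and 6.29 RPKM to 52.7, 48.9 and 50.2 (2.78, adjusted p 2.1e-09), and all mutant libraries were far above all wild-type libraries. The regulator PDR3 fell by 1.21 and the polyamine transporter gene TPO1 by 1.12. Of 50 tested cell wall genes 16 rose (32.0%) and 17 fell (34.0%), near the shares of all features (30.0% and 29.7%). Their log2 fold changes ran from -2.97 to 3.19, with HPF1, a wall mannoprotein, at -2.57. Without the scaling factors 11 were higher and 23 lower. In the AAD family of aryl-alcohol dehydrogenases 2 of 6 rose (33.3%) and 4 fell (66.7%), beside 30.0% and 29.7% of all features. The 2 that rose were AAD6 and YFL057C. Over the alternatives, some of which tested fewer members, 0 to 2 were higher and 1 to 4 lower. The list median, -0.92 in the main model, ran from -1.46 to 0.85 over them, so its direction was not stable.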
